A study of Caenorhabditis elegans with 6 samples.

Results

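The genes described here encode the subunits of the *C. elegans* proteasome. They were taken by name, as the rows of the deposited RPKM table whose symbol begins with *pas-*, *pbs-*, *rpn-* or *rpt-* and whose value was above 0 in at least 1 library. The rule found 32 genes among 19579 rows above 0. Of these, 14 encode the 20S core (7 *pas* and 7 *pbs* genes) and 18 encode the 19S cap (6 *rpt* and 12 *rpn* genes). All 32 passed the filter on low values and were tested. The symbols and identifiers of all 32 were found in the gene annotation. A further row, *C56G2.7*, is named *rpn-13* in RefSeq and lies outside the rule.

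The proteasome is the protease that degrades ubiquitin-tagged proteins in the cytosol and nucleus. Its core is a barrel of stacked rings, in which α-type subunits form the gated outer rings and β-type subunits the inner rings that hold the protease sites. The cap binds the ubiquitin chain, removes it, and uses a ring of ATPases to unfold the substrate and feed it into the barrel. In *C. elegans*, the transcription factor SKN-1A raises the genes of proteasome subunits when proteasome function is impaired.

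Poly(A) RNA of whole animals was sequenced in 3 biological replicates of strain PMD121, which is wild type, and 3 of strain PMD122, which carries *nhr-49(nr2041)*. NHR-49 is a nuclear receptor known for its control of fat breakdown and fatty acid desaturation, and the *nr2041* allele lacks part of the gene. Both groups were grown at 20°C on HT115 bacteria carrying the empty RNAi vector throughout development and were harvested as late L4 larvae, so neither group received RNAi against a gene. PMD121 and PMD122 are homozygotes kept from the F2 of a cross of N2 with STE68, and each genotype is therefore 1 strain.

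The library totals implied by the RPKM were 27190567 to 30183162 reads in wild type and 24523159 to 29408147 in the mutants. The *nhr-49* transcript was at 39.4, 40.8 and 37.8 RPKM in wild type and at 26.1, 22.1 and 26.1 RPKM in the mutants, with no overlap (log2 fold change -0.65, SE 0.11, limma adjusted p = 0.0164). Reads outside the deleted part can remain in the mutants. The *nhr-49* difference did not pass when wild-type replicate 1, 2 or 3 was left out (limma adjusted p = 0.093, 0.0551 and 0.0832), nor when mutant replicate 2 was (0.0821). A second principal component with 22.4% of the variance set wild-type replicate 2 and mutant replicate 1 against the remaining libraries. Markers of germline, oocytes, sperm, muscle, intestine, hypodermis and neurons were all present, as whole animals should give, and 5 of 75 sperm marker rows were at 0 in every library. RPKM are reads divided by gene length and library total. Fold changes are mutant minus wild type on the log2(RPKM + 1) scale, from limma over the 13965 genes that reached 1 RPKM in 3 or more libraries.

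Proteasome subunit mRNAs were abundant, and none of them passed the test between the genotypes. Of the 32 genes, 0 were called at an adjusted p under 0.05, against 4.13% of all genes tested (3.32% higher and 0.816% lower in the mutants). For 32 genes a count of 0 is near that share. At an unadjusted p under 0.05, 0 of the 32 were called, against 13.2% of all genes, and limma voom on the recovered reads also called 0. The lowest adjusted p among them was 0.552, for *pbs-1*. Their log2 fold changes lay between -0.23 (*pbs-1*) and 0.25 (*pas-2*), with a median of -0.05. The median over all genes tested was 0.10.

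The differences were bounded closely. For 25 of the 32 genes the 95% interval of the log2 fold change lay wholly within 0.5 of 0, a 1.41-fold change, against 32.2% of all genes tested and 49.7% of the 961 genes of similar level (72.9 to 217 RPKM). The study used that fold as its own cutoff. The other 7 were *pas-2*, *pas-5*, *pbs-1*, *pbs-4*, *rpn-1*, *rpn-2* and *rpn-6.2*, and the bound farthest from 0 was 0.67, for *pas-5*. Without mutant replicate 1 the interval lay within 0.5 of 0 for 31 of the 32 genes, the exception being *rpn-6.2*. Intervals also narrowed for genes in general: those within 0.5 of 0 rose from 4498 to 6409 of all 13965 genes tested.

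**Figure D1:**
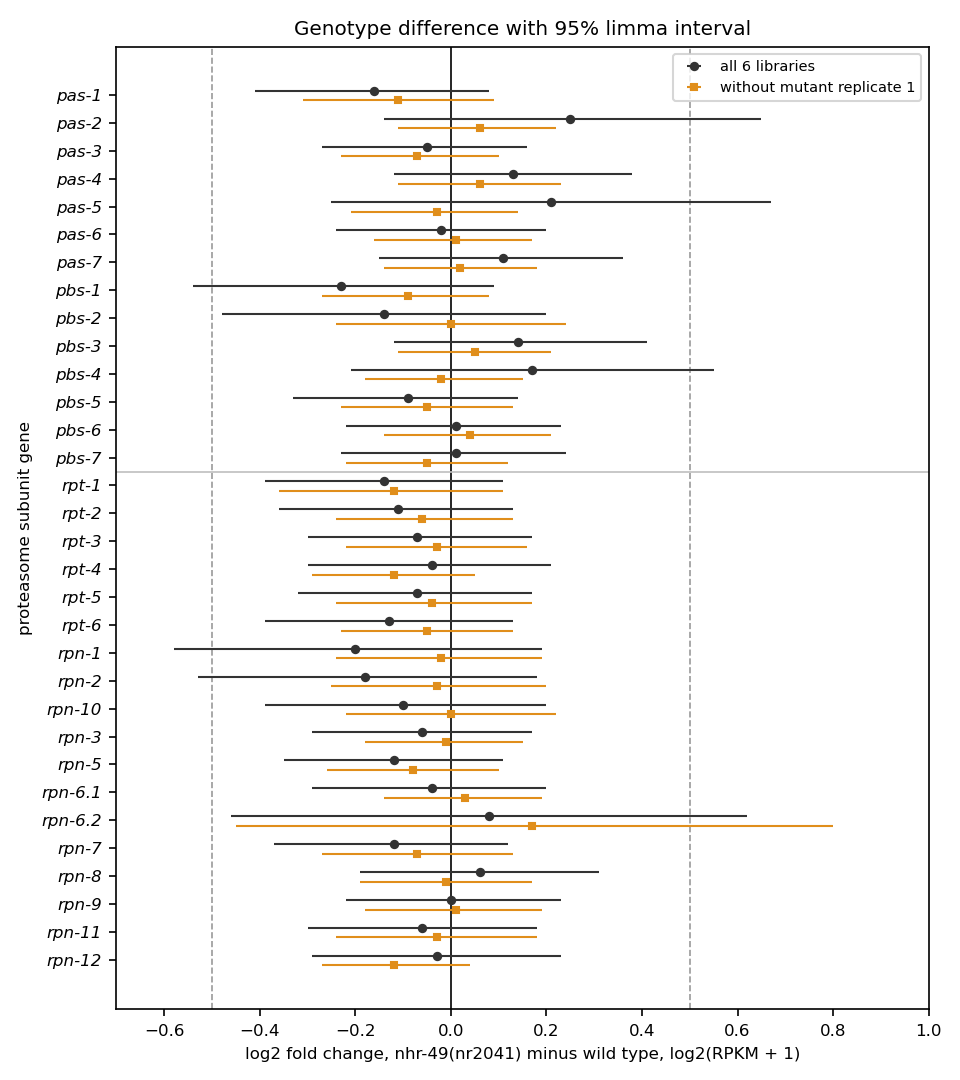
Log2 fold change of each of the 32 proteasome genes (mutant minus wild type, log2(RPKM + 1)) with its 95% limma interval, from all 6 libraries (dark circles) and without mutant replicate 1 (orange squares). Dashed lines mark 0.5 on either side of 0 and the grey line separates the 20S core (top) from the 19S cap. Every interval crosses 0, and without mutant replicate 1 only that of *rpn-6.2* passes 0.5.

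The α-type subunits close the ends of the barrel and form the gate through which substrates enter. Their wild-type means ran from 133 RPKM (*pas-4*) to 209 RPKM (*pas-3*), and the median log2 fold change of the 7 genes was 0.11. *pas-2* lies on chromosome V (10770368 to 10771351). It was at 192, 200.5 and 196 RPKM in wild type and at 306, 209 and 199.7 RPKM in the mutants. The groups overlapped, since mutant replicate 3 lay below wild-type replicate 2, and only mutant replicate 1 was far from the rest (log2 fold change 0.25, SE 0.17, limma adjusted p = 0.598). Without that library the log2 fold change of *pas-2* was 0.06.

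*pas-5* (chromosome I, 10566350 to 10567300) gave the same picture. Its values were 175, 188 and 174 RPKM in wild type and 287, 174 and 176 RPKM in the mutants. Mutant replicates 2 and 3 lay inside the wild-type range, and mutant replicate 1 was 60.5% above the wild-type mean. The log2 fold change was 0.21 (SE 0.20, limma adjusted p = 0.704) with that library and -0.03 without it. *pas-4* and *pas-7* had smaller values of the same kind, at 161 and 187 RPKM in mutant replicate 1 against wild-type means of 133 ± 1.63 and 154 ± 2.89 RPKM (SD, n = 3).

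The remaining α genes held close to one level. *pas-6* was at 192, 184 and 189 RPKM in wild type and at 177, 186.5 and 192 RPKM in the mutants. *pas-3* was at 214, 206 and 205 RPKM in wild type and at 206, 196 and 202 RPKM in the mutants. Both sets overlapped, and the log2 fold changes were -0.02 and -0.05. *pas-1* was at 152.5, 141 and 161 RPKM in wild type and at 127, 137 and 142 RPKM in the mutants, which gave -0.16 on the log2 scale (SE 0.11, limma adjusted p = 0.59). Here all 3 mutant libraries lay below wild-type replicates 1 and 3, and mutant replicate 3 lay above wild-type replicate 2.

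The β-type subunits line the degradation chamber, and 3 of the 7 carry the protease sites. *pbs-1* encodes the counterpart of the subunit with caspase-like activity, *pbs-2* that of the trypsin-like subunit and *pbs-5* that of the chymotrypsin-like subunit. *pbs-1* (chromosome IV, 1708814 to 1709745) had the highest wild-type mean of the 32 genes and was at 219, 227 and 219 RPKM in wild type and at 157.5, 201 and 216 RPKM in the mutants. It was the only 1 of the 32 whose groups did not overlap, with the mutants below. Among all genes tested, 3.78% had the mutants below without overlap and 17.6% had them above (21.4% in all). The log2 fold change of *pbs-1* was -0.23 (SE 0.13, limma adjusted p = 0.552) and -0.09 without mutant replicate 1.

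*pbs-2* was at 127, 151 and 147 RPKM in wild type and at 106, 137.5 and 145 RPKM in the mutants, so both mutant replicates 2 and 3 lay inside the wild-type range. *pbs-5*, whose gene is at 14719167 to 14720477 on chromosome I, was at 166, 180.0 and 169.5 RPKM in wild type and at 151, 171 and 161 RPKM in the mutants. These groups overlapped as well, with log2 fold changes of -0.14 and -0.09. Mutant replicate 1 was the lowest of the 6 libraries for all 3 protease-site genes.

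Of the β subunits without a protease site, *pbs-3*, *pbs-4* and *pbs-7* were highest in mutant replicate 1 and *pbs-6* was lowest there. *pbs-4* was at 126, 131 and 129.6 RPKM in wild type and at 187, 131 and 124 RPKM in the mutants, and *pbs-3* at 157, 152 and 152 RPKM against 193, 162 and 156 RPKM. In both genes mutant replicate 1 was the highest of all 6 libraries, and the groups overlapped. The log2 fold changes were 0.17 (SE 0.16, limma adjusted p = 0.709) and 0.14 (SE 0.11, limma adjusted p = 0.66). *pbs-6* and *pbs-7* varied little between libraries. *pbs-6* was at 159.6, 156 and 155 RPKM in wild type and at 151, 155 and 167 RPKM in the mutants. *pbs-7* was at 182, 176 and 191 RPKM against 199, 177 and 176 RPKM. Each had a log2 fold change of 0.01.

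**Figure D2:**
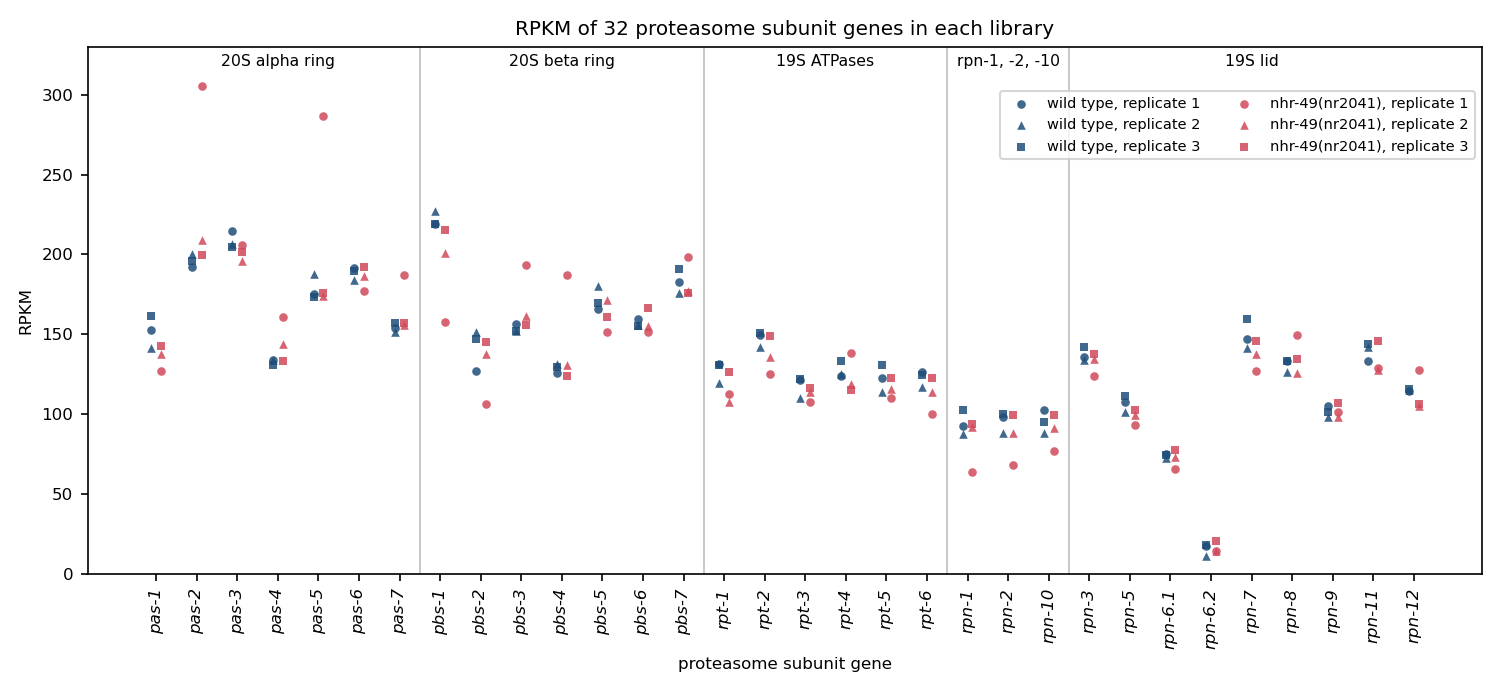
RPKM (linear axis from 0) of each proteasome gene in each of the 6 libraries, ordered by place in the complex. Blue points are wild-type and red points *nhr-49(nr2041)* libraries, with 1 marker shape per replicate. The circles of mutant replicate 1 leave the cluster at *pas-2* (306 RPKM), *pas-5* (287 RPKM), *pbs-4* (187 RPKM) and *pbs-1* (157.5 RPKM), and *rpn-6.2* lies far below the other genes.

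In the cap, the *rpt* genes encode the AAA ATPases that unfold the substrate. Their levels were nearly equal, with wild-type means from 118 RPKM (*rpt-3*) to 148 RPKM (*rpt-2*). All 6 log2 fold changes were below 0, between -0.14 (*rpt-1*) and -0.04 (*rpt-4*), and all 6 intervals lay within 0.5 of 0. Across all genes tested, 32.7% of log2 fold changes were below 0. *rpt-1* was at 132, 119.7 and 131 RPKM in wild type and at 113, 108 and 126 RPKM in the mutants, and *rpt-6* at 126, 117 and 124.5 RPKM against 99.9, 114 and 123 RPKM. In both genes mutant replicate 3 lay inside the wild-type range.

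*rpt-2* and *rpt-3* followed *rpt-6*. *rpt-2* was at 149.7, 142 and 151 RPKM in wild type and at 125, 135.5 and 149 RPKM in the mutants. *rpt-3* was at 121.5, 109.8 and 122 RPKM against 107, 114 and 116 RPKM. For each, the lowest value was that of mutant replicate 1. *rpt-5* was at 123, 114 and 131 RPKM in wild type and at 110.1, 116 and 123 RPKM in the mutants. *rpt-4* departed from the other 5, since mutant replicate 1 was the highest of its libraries: 124, 125 and 133 RPKM in wild type, and 138, 119 and 115 RPKM in the mutants.

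*rpn-1* and *rpn-2* encode the largest cap subunits, scaffold proteins of the base that hold ubiquitin receptors. Both genes had similar values. *rpn-1* (chromosome IV, 6906420 to 6909913) was at 92.6, 87.4 and 103 RPKM in wild type and at 63.9, 91.6 and 93.4 RPKM in the mutants. *rpn-2* (chromosome III, 6199184 to 6202594) was at 98.1, 88.3 and 99.8 RPKM in wild type and at 68.0, 87.9 and 99.1 RPKM in the mutants. In each gene mutant replicate 1 alone lay far below the others, at -32.2% and -28.8% relative to the wild-type mean. The log2 fold changes were -0.20 (SE 0.16, limma adjusted p = 0.666) and -0.18 (SE 0.15, limma adjusted p = 0.671), and -0.02 and -0.03 without that library. *rpn-10*, a ubiquitin receptor, was at 102, 87.8 and 95.2 RPKM in wild type and at 77.1, 91.1 and 99.2 RPKM in the mutants. Its log2 fold change was -0.10 (SE 0.13, limma adjusted p = 0.786), and 0.00 without mutant replicate 1.

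The lid sits beside the base and removes ubiquitin from the substrate through RPN-11, a metalloprotease that works as a dimer with RPN-8. *rpn-11* was at 133, 142 and 144 RPKM in wild type and at 129, 128 and 145.5 RPKM in the mutants. *rpn-8* was at 133, 126 and 133 RPKM against 149.5, 125 and 134 RPKM. Both overlapped, with log2 fold changes of -0.06 and 0.06. The structural lid subunits *rpn-3*, *rpn-5*, *rpn-7*, *rpn-9* and *rpn-12* had log2 fold changes from -0.12 (*rpn-5* and *rpn-7*) to 0.00 (*rpn-9*). *rpn-7* had the highest wild-type mean of the cap, at 147, 141 and 159 RPKM, and was at 127, 138 and 146 RPKM in the mutants. *rpn-12* was the most even of the 32 genes in wild type, at 114.4, 114.9 and 115.4 RPKM, and was at 128, 105 and 106 RPKM in the mutants. Its libraries interleaved, with mutant replicate 1 above and mutant replicates 2 and 3 below all wild-type values.

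The lid subunit RPN-6, which clamps lid, base and core together, has a pair of genes in this species. Raised expression of *rpn-6.1* is known to increase proteasome activity and lifespan in *C. elegans*. *rpn-6.1* (chromosome III, 6959110 to 6962001) was at 74.9, 72.6 and 74.1 RPKM in wild type and at 65.4, 73.0 and 77.5 RPKM in the mutants. The mutant values lay on both sides of the wild-type range (log2 fold change -0.04, SE 0.11, limma adjusted p = 0.899). *rpn-6.2* (chromosome III, 8999817 to 9001999) was the lowest and most variable of the 32 genes, at 17.2, 10.8 and 17.9 RPKM in wild type and at 13.9, 14 and 20.5 RPKM in the mutants. The genotype difference was within that spread (log2 fold change 0.08, SE 0.23, limma adjusted p = 0.907). On this length-corrected scale *rpn-6.1* was at 4.83 times the level of *rpn-6.2* in wild type and 4.46 times in the mutants. The lowest *rpn-6.2* value was that of wild-type replicate 2. There the summed RPKM of 75 sperm marker rows was 1046, against 2636 and 2390 in wild-type replicates 1 and 3. In mutant replicates 1, 2 and 3 the sum was 1939, 2389 and 2495. Mutant replicate 2 and wild-type replicate 3 had nearly equal sums, with *rpn-6.2* at 14 and 17.9 RPKM. The part of sperm RNA in the *rpn-6.2* values was not tested, and in whole animals fewer cells of a type and less RNA per cell cannot be told apart.

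Wild-type replicate values of the subunits varied little. The 20S genes spanned a 1.72-fold range of wild-type means (129 to 222 RPKM) and the 19S genes without *rpn-6.2* a 2.02-fold range (73.9 to 149 RPKM). The median SD over the wild-type replicates was 0.056 on the log2 scale for the 32 genes, 0.032 for the core and 0.066 for the cap. It was 0.149 over all genes tested and 0.098 over the 961 genes of similar level. Each of the 31 genes other than *rpn-6.2* had 2453 to 9551 reads per library, a counting error of at most 2.02%, which is of the same order as the smallest of these spreads. For *rpn-6.2* the lowest was 503 reads. The SD was larger in the mutants for 27 of the 32 genes and for 8984 of the 13965 genes tested. Over the mutant replicates the median SD was 0.125 for the 32 genes, 0.142 for the core and 0.122 for the cap. It was 0.222 over all genes tested.

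Mutant replicate 1 held most of the departures. In this library 6 of the 32 genes were at least 20% above the wild-type mean (*pas-2*, *pas-4*, *pas-5*, *pas-7*, *pbs-3* and *pbs-4*, all of the core) and 4 were at least 20% below (*pbs-1*, *pbs-2*, *rpn-1* and *rpn-2*). In mutant replicate 2 these counts were 0 and 0, with a range from -15.4% (*rpt-1*) to 8.23% (*pas-4*). In mutant replicate 3 they were 1 and 0, the exception being *rpn-6.2* at 33.9% above, and the lowest was *rpt-4* at -9.90%. Among the wild-type libraries *rpn-6.2* in replicate 2, at -29.6%, was the only value as far from the mean. Mutant replicate 1 was the lowest of the 6 libraries for 17 of the 32 genes and the highest for 10. On the log2 scale, its median absolute distance from the mean of mutant replicates 2 and 3 was 0.20 for the 32 genes. Over all genes tested this distance was larger, at 0.33. The sum of 15 neuron markers also departed in this library, at 769 RPKM, against 484 to 580 in the other 5 libraries. The sum of 15 body wall muscle markers was 9834 RPKM here, and 11013 and 10331 RPKM in mutant replicates 2 and 3. In wild type it was 11517, 11773 and 11185 RPKM, above all 3 mutant libraries. The part of these marker sums in the proteasome values was not tested.

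These departures moved with gene length, among the proteasome genes and among all genes. Over the 10 proteasome genes shorter than 1000 bases, the median of mutant replicate 1 minus the mean of mutant replicates 2 and 3 was 0.24 on the log2 scale, and 7 of the 10 were above 0. From 1000 to 1500 bases it was -0.12 (14 genes), from 1500 to 2500 bases -0.12 (6 genes, 0 above 0), and for *rpn-1* and *rpn-2*, which are longer, -0.49. The medians over all genes tested in the same bands were 0.37, 0.15, 0.02 and -0.20. Pearson's r of log2 length with this departure was -0.58 over the 32 genes (Spearman's rho -0.55) and -0.41 over all genes tested. It was -0.24 in the core (rho -0.34) and -0.74 in the cap (rho -0.51), or -0.49 without *rpn-1* and *rpn-2*. These are descriptions across genes that share the same libraries. The core genes were shorter than the cap genes, with median lengths of 950 and 1490 bases. The part of length in the departures was not tested.

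**Figure D3:**
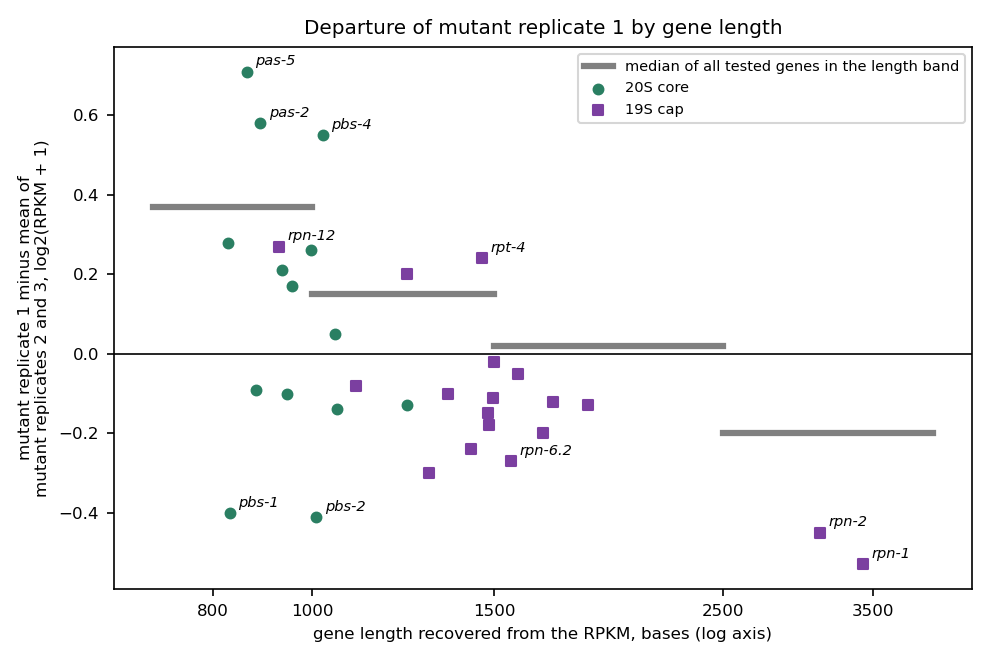
Departure of mutant replicate 1 from the mean of mutant replicates 2 and 3 (log2(RPKM + 1)) against gene length in bases (log axis) for 14 core genes (green circles) and 18 cap genes (purple squares). Grey bars give the median of all tested genes in each length band, 0.37, 0.15, 0.02 and -0.20 from short to long. Short core genes lie on both sides of 0 and *rpn-1* and *rpn-2* lie lowest on the right.

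Core and cap were compared within each library. The median core RPKM was above the median cap RPKM in every library. With *rpn-6.2* left out of the cap, the ratio of these medians was 1.33, 1.44 and 1.33 in wild type and 1.65, 1.47 and 1.41 in the mutants. The single genes overlapped: between 8 and 12 of the 14 core genes, depending on the library, were above the highest cap gene. Between genotypes, the median log2 fold change was 0.01 for the 14 core genes and -0.07 for the 18 cap genes, against 0.10 over all genes tested. Below 0 were 6 of 14 core and 15 of 18 cap genes, and all 18 cap genes lay below the median of all genes. The core median turned to -0.08, -0.12 and -0.09 after quantile normalization, with library medians set equal and with voom, where the median over all genes was -0.04, -0.02 and 0.02. Relative to that median, the core lay between -0.12 and -0.04 and the cap between -0.24 and -0.11 over all the fits made. Without mutant replicate 1 the core and cap medians were -0.01 and -0.03, and the median over all genes was 0.08. With wild-type replicate 2 left out as well, the core and cap medians were 0.00 and -0.08, and that over all genes was 0.05.

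The mean log2 level of the cap minus that of the core was -0.64, -0.77 and -0.63 in wild type and -0.94, -0.76 and -0.65 in the mutants. The groups overlapped. Without *rpn-6.2* the values were -0.49, -0.59 and -0.48 in wild type and -0.78, -0.60 and -0.51 in the mutants. The cap was lowest against the core in mutant replicate 1, followed at nearly one level by mutant replicate 2 and wild-type replicate 2. Wild-type replicate 2 had the lowest wild-type value for 15 of the 18 cap genes and for 5 of the 14 core genes.

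The same 3 libraries had the lowest level of germline markers. The summed RPKM of 17 germline markers, all above 0, was 800, 499 and 745 in wild type and 381, 595 and 796 in the mutants. For 16 oocyte markers, also all above 0, it was 239, 119 and 218 in wild type and 99.6, 205 and 233 in the mutants. The germline list had 0 of 17 genes called by limma in either direction (0 at an unadjusted p under 0.05 and 0 by voom). Over all genes tested, 4.13% were called by limma and 13.2% had an unadjusted p under 0.05. The median log2 fold change of the list was -0.29, and 0.07 without mutant replicate 1. The part of germline content in the levels of cap and core was not tested.

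**Figure D4:**
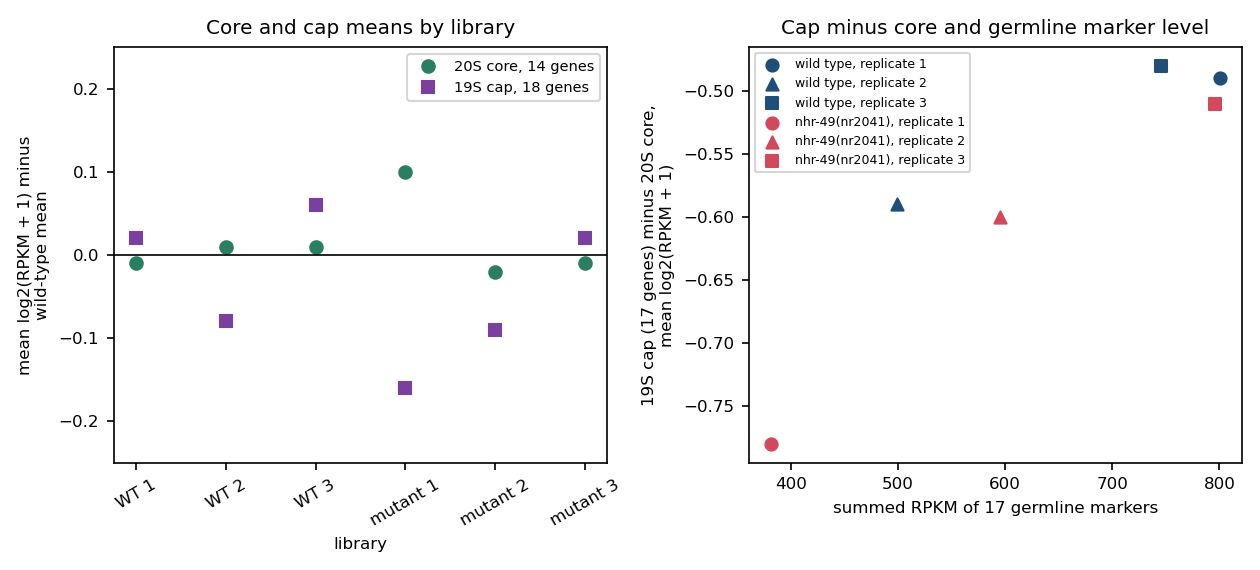
Left, mean log2(RPKM + 1) of the 14 core genes (green circles) and 18 cap genes (purple squares) in each library, minus the wild-type mean. Right, cap without *rpn-6.2* minus core (mean log2(RPKM + 1)) against the summed RPKM of 17 germline markers, 1 point per library. In mutant replicate 1 the core is highest (0.10) and the cap lowest (-0.16), and it is also the library with the lowest germline sum (381).

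Genes that act with the proteasome were also without calls. *skn-1*, which encodes the factor that induces subunit genes, was at 40.9, 39.5 and 40.2 RPKM in wild type and at 41.0, 50.6 and 47.7 RPKM in the mutants. The groups did not overlap, as for 17.6% of all genes with the mutants above, but the gap to mutant replicate 1 was small, and the test was not passed (log2 fold change 0.20, SE 0.11, limma adjusted p = 0.532). Without mutant replicate 1 the log2 fold change of *skn-1* was 0.28 (95% interval 0.11 to 0.46, limma adjusted p = 0.125). The reads were counted per gene, so the SKN-1A isoform was not separated from the others. *png-1*, whose product edits SKN-1A after its release from the endoplasmic reticulum, differed by 0.10 on the log2 scale (limma adjusted p = 0.767). The protease gene *ddi-1* had no row under that symbol and was not analysed here. Of the 5 tested genes on this route, 0 were called, 0 at an unadjusted p under 0.05 and 0 by voom. Over all 13965 genes tested, 4.13% were called, 13.2% had an unadjusted p under 0.05 and voom called 572 genes. A count of 0 in so few genes is near these shares.

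Among 7 proteasome partners, 0 were called, likewise 0 at an unadjusted p under 0.05 and 0 by voom, with a median log2 fold change of 0.01. This too is near the shares over all genes, 4.13% called and 13.2% at an unadjusted p. *dss-1*, which encodes a small lid subunit not covered by the naming rule, was at 112, 118 and 104.5 RPKM in wild type and at 141, 117 and 112 RPKM in the mutants (log2 fold change 0.14, limma adjusted p = 0.675). *aip-1*, which encodes an arsenite-inducible proteasome-associated protein, was at 20.1, 22.6 and 21.9 RPKM against 32.3, 24.7 and 20.1 RPKM (log2 fold change 0.22, limma adjusted p = 0.652). In both, mutant replicate 1 was the highest library and the groups overlapped. *C56G2.7*, the *rpn-13* row, was at 91.1, 83.0 and 87.6 RPKM in wild type and at 74.7, 85.5 and 88.2 RPKM in the mutants (log2 fold change -0.08, limma adjusted p = 0.802).

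Upstream and neighbouring systems had no calls. The 4 lists for ubiquitin with its E1 and E2 enzymes, the CDC-48 complex, cullins with Skp1-related genes, and the signalosome and translation initiation relatives of the lid held 72 tested genes. Of these, 0 were called by limma and 0 by voom, and 3 had an unadjusted p under 0.05. The shares over all genes tested were 4.13% by limma and 13.2% at an unadjusted p. Their median log2 fold changes lay between -0.04 and 0.14. Among the marker lists, calls came only in the intestine list, where 2 of 14 genes were called, against 4.13% of all genes tested. They were *pgp-1* (log2 fold change 1.23, limma adjusted p = 0.000474) and *mtl-2* (1.10, limma adjusted p = 0.00157), both higher in the mutants. The paper had already listed both among genes changed by *hsf-1* RNAi and by this mutation. The marker lists were chosen with earlier results of these data known, so these calls are no independent finding about intestine. Voom also called 2 of the 14, and 4 had an unadjusted p under 0.05, against 13.2% of all genes. The summed level of the list was 6058 to 6838 RPKM in wild type and 6594 to 8195 RPKM in the mutants. In each of the other 6 marker lists 0 genes were called by limma or voom, and 0 to 2 had an unadjusted p under 0.05.

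The 32 genes are spread over the autosomes, with 10 on chromosome I and 0 on X. On chromosome I, *pas-5*, *rpn-10*, *pas-4* and *pbs-7* lie 0.69, 0.86, 1.14 and 1.17 Mb from *nhr-49*, where DNA of the STE68 parent may have been carried along with the mutation, which was not tested. None of these 4 was called, against 4.13% of all genes tested, and a count of 0 in 4 genes is near that share. Their log2 fold changes were 0.21, -0.10, 0.13 and 0.01, and -0.03, 0.00, 0.06 and -0.05 without mutant replicate 1. Exons of 9 of the 32 genes (*pas-7*, *pbs-3*, *pbs-4*, *rpn-7*, *rpn-10*, *rpn-11*, *rpt-2*, *rpt-4* and *rpt-6*) overlap those of a protein-coding gene on the other strand, and *pbs-7* overlaps *K07A12.5* on its own strand. The strand setting of the counting is not given in the sources used here, so reads of these 10 genes and of their partners may be mixed.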

How the data were processed

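The authors deposited RPKM per gene and library, with the mean of each genotype (made with CLC software, whose Baggerly's test the authors ran with correction for false discovery). The submitters' processing notes name build WBcel235. The mapper and annotation were not given in the sources used here. Oligo(dT)-selected mRNA had been read as paired ends of 150 bp. RPKM values (100.0% of rows above 0) were whole reads within 0.01 at 1 solved length per gene. That length equalled the exon length of Ensembl release 115 for 3 of the 32 genes, and that release served for coordinates.

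RPKM were tested with limma 3.58.1 (lmFit, eBayes with trend and robust, statmod 1.5.0, R 4.3.3) on log2(RPKM + 1), for rows reaching 1 RPKM in 3 or more of the 6 libraries, with genotype as the only term, and Benjamini-Hochberg adjustment over all 13965 rows. The steps were tested on simulated data. Alternatives were other scalings, filters and pseudocounts, a replicate block, leaving out libraries, and voom. Named genes were all members, listed pathway genes past the test, and *skn-1*, *ddi-1*, *png-1*, *dss-1*, *aip-1* and *nhr-49*. *C56G2.7* was added after its values were seen. Members and lists were chosen with earlier results of these data known.

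No replicate pair differed by as little as sampling noise. Counting errors cover counting alone. The smallest p of an exact permutation test of 3 against 3 libraries is 0.10.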

Additional observations from a re-analysis of the deposited data

How the results depend on the processing

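The number of proteasome genes called was 0 in all 15 alternative fits, where their lowest adjusted p from limma lay between 0.26 and 0.872, and their log2 fold changes stayed between -0.35 and 0.36. Over all genes tested, these fits called 382 to 1300. With library medians set equal, 3 (*pas-1*, *pbs-1* and *rpt-1*) had an unadjusted p under 0.05, the most in any fit. In the main fit 13.2% of all genes had an unadjusted p under 0.05, and 3 of 32 is near that share. Between 19 and 32 of the 32 genes had an interval within 0.5 of 0, against 32.2% of all genes in the main fit. The sign of the log2 fold change was kept in every fit by 18 genes. The core median of 0.01 became -0.08 (quantile normalization), -0.12 (library medians set equal) and -0.09 (voom), and the cap median of -0.07 became -0.15, -0.20 and -0.17 under the same settings. These scalings also moved the median over all genes from 0.10 to -0.04, -0.02 and 0.02.

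Over all genes, 577 were called, 382 to 635 with each library left out in turn, 1300 without wild-type replicate 2 and mutant replicate 1 together, and 1839 at an unadjusted p. With the replicate block 396 genes and 0 proteasome genes were called, and the call of *nhr-49* was lost (log2 fold change -0.65, limma adjusted p = 0.0965). The sources used here do not state whether same-numbered libraries were paired. Their deviations correlated at -0.33, -0.16 and 0.34, which cannot show whether they shared a batch.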
